A study of Homo sapiens with 2 samples.

Results

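The 10 genes described here encode transcription factors that set and maintain the urothelial lineage: GATA3, FOXA1, ELF3, GRHL2, GRHL3, KLF5, TP63, TBX2, TBX3 and TFAP2A. They were chosen by name, and each had 1 row in both deposited tables, so 10 of 55773 gene symbols were taken. The cells were BFTC 905, an established line of human urothelial carcinoma cells grown from a bladder tumour. The ANGPTL4 cells stably carried a plasmid that overexpresses ANGPTL4, a secreted inhibitor of lipoprotein lipase, and the control cells stably carried the empty pcDNA3.1 vector. Both were selected with G418, and whether each population was a single clone or a pool is not given in the sources used here. Total RNA gave 1 library per group, so each statement compares 2 libraries and not the conditions, no difference has a replicate check, and no p-value was computed.

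The urothelium is a layered epithelium in which basal cells renew intermediate cells and the umbrella cells that face the urine. TP63 acts in basal cells, though it is not confined to them. GATA3 and FOXA1, together with the nuclear receptor PPARG, act in luminal differentiation, and grainyhead-like, KLF and ETS factors keep the epithelial programme running. In bladder carcinoma these factors are widely used to tell luminal from basal or squamous tumours.

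The values are RPKM, reads per kilobase of exon scaled to library size, as the authors deposited them. Their steps corresponded to 3233596 reads in the ANGPTL4 library and 6572767 reads in the vector control library. ANGPTL4 itself was at 91.2 RPKM in the ANGPTL4 library and 3.92 RPKM in the control library. Mitochondrially encoded genes took 8.71% of reads in the ANGPTL4 library and 5.11% in the control library, and over the 11802 measured genes the log2 ratio had a median of -0.11. A gene was called measured at 1 RPKM or more in at least 1 library. The log2 ratio is that of RPKM + 1, ANGPTL4 over control, which understates the difference of low genes. Intervals are exact 95% intervals from the recovered reads and cover counting error only.

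To show what lies upstream of factors at opposite ends of the level range, RefSeq start regions (GRCh38.p14, 250 bases before to 50 after a start) are given for KLF5 and TP63, the pair with the highest levels, FOXA1, which had almost no reads, and ELF3 and GRHL3, the measured pair with lower values in the ANGPTL4 library. The windows are chr13:73058755-73059054 (plus strand) for KLF5, chr3:189631139-189631438 (plus) for TP63, chr14:37595200-37595499 (minus) for FOXA1, chr1:202010337-202010636 (plus) for ELF3 and chr1:24322790-24323089 (plus) for GRHL3. Capitals mark CG dinucleotides, the sites of DNA methylation. Where the table held several starts, as for KLF5 and GRHL3, the window with the most CG is shown.
KLF5: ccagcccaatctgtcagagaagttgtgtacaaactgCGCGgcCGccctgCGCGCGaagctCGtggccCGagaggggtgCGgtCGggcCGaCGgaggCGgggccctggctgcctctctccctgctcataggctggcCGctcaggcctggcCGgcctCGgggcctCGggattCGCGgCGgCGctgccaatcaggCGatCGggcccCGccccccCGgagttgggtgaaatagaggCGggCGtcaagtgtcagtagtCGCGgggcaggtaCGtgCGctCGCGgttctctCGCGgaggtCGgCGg
TP63: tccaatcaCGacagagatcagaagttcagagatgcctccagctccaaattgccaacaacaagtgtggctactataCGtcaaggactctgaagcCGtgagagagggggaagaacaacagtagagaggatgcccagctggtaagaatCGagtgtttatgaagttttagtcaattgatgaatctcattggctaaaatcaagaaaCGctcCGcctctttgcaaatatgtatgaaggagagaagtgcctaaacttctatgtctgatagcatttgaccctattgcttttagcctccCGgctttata
FOXA1: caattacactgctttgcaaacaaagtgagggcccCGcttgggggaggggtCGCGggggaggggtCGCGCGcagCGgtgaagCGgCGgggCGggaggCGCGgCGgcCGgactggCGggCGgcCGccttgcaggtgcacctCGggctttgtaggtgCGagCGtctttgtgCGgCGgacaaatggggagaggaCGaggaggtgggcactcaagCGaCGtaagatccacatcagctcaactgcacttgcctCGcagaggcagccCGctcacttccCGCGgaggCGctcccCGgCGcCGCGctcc
ELF3: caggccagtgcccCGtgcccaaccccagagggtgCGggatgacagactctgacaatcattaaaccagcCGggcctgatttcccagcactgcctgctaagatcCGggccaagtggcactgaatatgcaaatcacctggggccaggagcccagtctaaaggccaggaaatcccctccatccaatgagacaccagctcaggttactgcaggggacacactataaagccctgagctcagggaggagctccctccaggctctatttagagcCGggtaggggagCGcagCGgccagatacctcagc
GRHL3: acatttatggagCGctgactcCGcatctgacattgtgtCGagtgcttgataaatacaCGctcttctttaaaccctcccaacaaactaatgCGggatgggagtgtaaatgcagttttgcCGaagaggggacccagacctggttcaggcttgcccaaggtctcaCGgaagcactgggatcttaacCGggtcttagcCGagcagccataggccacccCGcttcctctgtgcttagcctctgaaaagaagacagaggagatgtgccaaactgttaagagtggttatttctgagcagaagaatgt

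The window of KLF5 held 37 CG and that of FOXA1 34 CG, and at least as many were found in 11.3% and 15.6% of all 35116 start regions. The windows of TP63 and ELF3 held 7 CG each, a number that 63.2% of all start regions reached, and that of GRHL3 held 10 CG. The other start of KLF5 held 4 CG, so the number depends on the window chosen. No relation of CG number to level is drawn from these windows. The TP63 window lies at the upstream start of the gene, from which the longer TAp63 forms are made. The internal start of the ΔNp63 forms, the usual forms of basal epithelial cells, is not in it, and RPKM per gene does not tell these forms apart. For GATA3 the table held 6 starts with 5 to 36 CG, and for TFAP2A 2 starts with 18 CG each. TBX2, TBX3 and GRHL2 had no entry.

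Short motifs of the factors' own families, and the TATA box TATAAA, were searched on both strands of the 15 start regions of these 7 genes. No motif of the p53 family, to which TP63 belongs, was searched. The GC box GGGCGG, read by KLF and SP factors, was present in 7 of the 15, among them the printed windows of KLF5 and FOXA1, against 45.0% of all start regions. The AP-2 motif GCCNNNGGC was present in 4, belonging to GATA3 and GRHL3, the printed GRHL3 window included (23.2% of all), and the GATA motif GATAA in 3, of the same genes (22.7%). The ETS motif CCGGAA was found in 2, both of GATA3 (17.2%), and TATAAA in 5, among them the windows of TP63 and ELF3 (11.5%). The FOXA motif TGTTTAC, the grainyhead motif ACCGGTT and the T-box motif GGTGTGA were in none, and are present in 3.42%, 0.772% and 3.45% of all. Matches of GGGCGG and GCCNNNGGC can overlap. These are letter matches, and no binding was measured.

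The levels formed a steep order that was nearly the same in both libraries. KLF5 was first and TP63 second in each, and together they held 37.0% and 25.5% of the summed RPKM of the 10 factors in the ANGPTL4 library and 35.4% and 23.9% in the control library. GATA3, TFAP2A and GRHL2 followed between 10.4 and 15.8 RPKM over both libraries, ELF3 and GRHL3 between 5.89 and 8.89 RPKM, and TBX3 at 1.92 and 1.84 RPKM. FOXA1 and TBX2 lay far under 1 RPKM. In the ANGPTL4 library GATA3 and TFAP2A, TFAP2A and GRHL2, ELF3 and GRHL3, and FOXA1 and TBX2 were neighbours that did not differ beyond counting error. In the more deeply sequenced control library this held for GATA3 and GRHL2 and for TBX2 and FOXA1 alone.

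**Figure D1:**
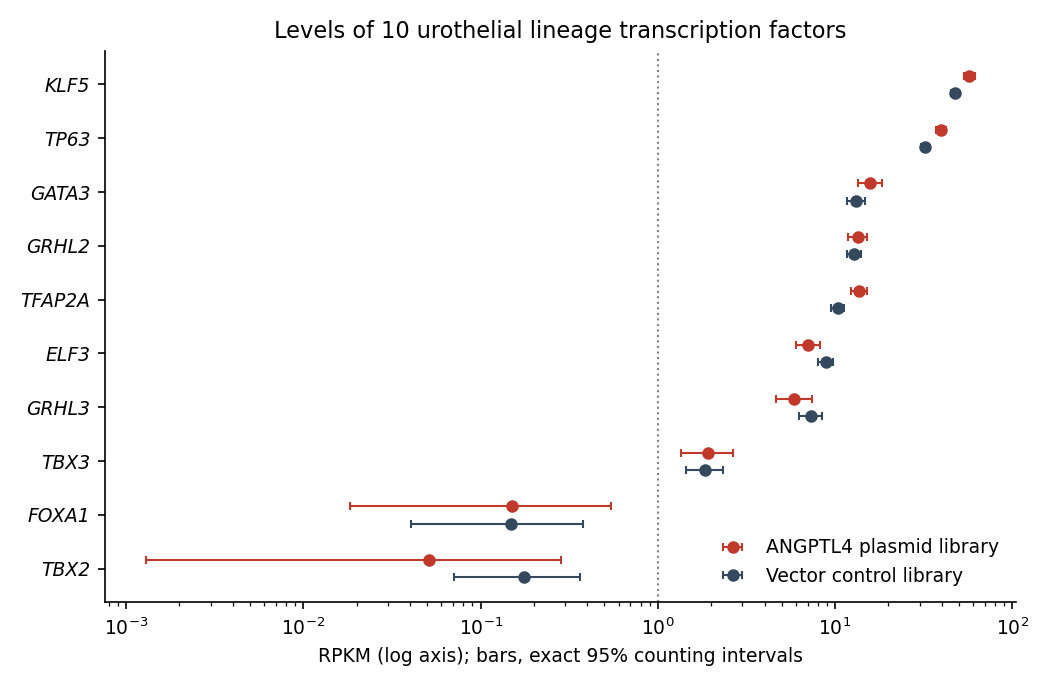
RPKM (log axis) of the 10 lineage factors in the ANGPTL4 plasmid library (red, upper point of each pair) and the vector control library (dark, lower point), with exact 95% counting intervals as bars. KLF5 and TP63 stand highest, FOXA1 and TBX2 lie left of the dotted line at 1 RPKM, and the intervals widen as reads become few.

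GATA3, a zinc finger factor and the usual immunohistochemical marker of urothelial origin (hg19 chromosome 10, 8095567 to 8117161), was at 15.8 RPKM in the ANGPTL4 library and 13.1 RPKM in the control library, from 166 and 281 reads. The ratio was 1.20 (0.985 to 1.46), so with the values as deposited the libraries could not be told apart beyond counting error. Some of the other scalings given below placed this interval above 1. GATA3 made up 82.7% of the summed RPKM of the GATA family in the ANGPTL4 library and 78.3% in the control library. GATA6 and GATA2 were the other measured members, at 1.65 and 1.66 RPKM in the ANGPTL4 library and 1.97 and 1.67 RPKM in the control library. GATA1, GATA4 and GATA5 were listed at 0 in both.

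FOXA1 opens chromatin as a pioneer factor and works with GATA3 in luminal urothelial cells. It was at 0.150 RPKM in the ANGPTL4 library and 0.148 RPKM in the control library, from 2 and 4 reads (chromosome 14, 38059189 to 38069245). At these depths 1 read equals 0.0752 RPKM in the ANGPTL4 library and 0.0370 RPKM in the control library, so neither level was far from the floor of 3 reads, and no ratio is drawn. The paralogue FOXA2, a pioneer factor of endoderm, was at 13.4 RPKM in the ANGPTL4 library and 12.9 RPKM in the control library (ratio 1.04, 0.825 to 1.32), from 113 and 220 reads. FOXA2 thus held nearly all of the FOXA reads of this line, whichever plasmid it carried, and FOXA1 1.11% and 1.12% of the family's RPKM. The only row that overlaps FOXA1, TTC6, was listed at 0 in both.

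ELF3, an epithelial ETS factor that acts in urothelial differentiation (chromosome 1, 201977073 to 201986316), was at 7.05 RPKM in the ANGPTL4 library and 8.89 RPKM in the control library, from 164 and 420 reads. The ratio was 0.794 (0.659 to 0.953), the lowest of the 8 measured factors and the only one of them with an interval wholly below 1. ELF3 was not the main gene of its group. EHF, another epithelial ETS factor, was at 37.2 RPKM in the ANGPTL4 library and 34.9 RPKM in the control library (ratio 1.07, 0.957 to 1.19), and ELF1 and ELF4 also lay above ELF3. The overlapping rows RP11-465N4.4 and RP11-510N19.5 were listed at 0 in the ANGPTL4 library and at 0.143 and 0.154 RPKM in the control library.

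The grainyhead-like factors GRHL2 and GRHL3 bind enhancers of junction and barrier genes, and in mice GRHL3 is needed for umbrella cell differentiation. GRHL2 (chromosome 8, 102504660 to 102681954) was at 13.5 RPKM in the ANGPTL4 library and 12.8 RPKM in the control library, from 264 and 511 reads, a ratio of 1.05 (0.902 to 1.22). GRHL3 (chromosome 1, 24645812 to 24690972) was at 5.89 RPKM in the ANGPTL4 library and 7.30 RPKM in the control library, from 75 and 189 reads, a ratio of 0.807 (0.609 to 1.06). Both intervals include 1. The third paralogue, GRHL1, stood between them at 10.2 RPKM in the ANGPTL4 library and 9.44 RPKM in the control library, so the family's summed level was 29.6 RPKM in each library. STPG1, whose annotated region runs into that of GRHL3, was at 1.02 RPKM in the ANGPTL4 library and 1.04 RPKM in the control library, and reads of the shared stretch are uncertain.

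KLF5, a zinc finger factor of proliferating epithelium that is required for urothelial development in mice (chromosome 13, 73629114 to 73651676), was the most abundant of the 10. It was at 57.3 RPKM in the ANGPTL4 library and 47.5 RPKM in the control library, from 720 and 1214 reads, and ranked 511 and 681 among the 11802 measured genes. The ratio was 1.21 (1.10 to 1.32), so the ANGPTL4 library was higher by more than counting error. KLF4, a factor of epithelial differentiation and the second gene of the family, had a similar ratio of 1.25 (1.07 to 1.45) at 23.8 RPKM in the ANGPTL4 library and 19.1 RPKM in the control library. KLF10, an early response factor, was at 20.5 RPKM in the ANGPTL4 library and 17.1 RPKM in the control library. KLF16 ran the other way, at 8.27 RPKM in the ANGPTL4 library and 11.7 RPKM in the control library (ratio 0.704, 0.538 to 0.913).

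TP63 (chromosome 3, 189349205 to 189615068), the factor that maintains basal epithelial cells, was at 39.4 RPKM in the ANGPTL4 library and 32.1 RPKM in the control library. With 950 and 1574 reads it had the most reads of the 10, and its ratio of 1.23 (1.13 to 1.33) had the tightest interval. Its paralogue TP73 was far lower, at 1.33 RPKM in the ANGPTL4 library and 1.35 RPKM in the control library. MIR944, which lies within TP63, and RP11-600G3.1 were listed at 0 in both.

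The T-box repressors TBX2 and TBX3 were the least expressed factors besides FOXA1. TBX3 (chromosome 12, 115108059 to 115121969) was at 1.92 RPKM in the ANGPTL4 library and 1.84 RPKM in the control library, from 37 and 72 reads, a ratio of 1.04 (0.683 to 1.57). TBX2 (chromosome 17, 59477257 to 59486827) was at 0.0513 RPKM from 1 read in the ANGPTL4 library and 0.177 RPKM from 7 reads in the control library, and its ratio of 0.290 (0.00644 to 2.26) was not a detectable difference at this depth. The row RP11-332H18.4, which overlaps TBX2, was listed at 0 in the ANGPTL4 library and at 0.252 RPKM in the control library. The most abundant T-box gene was TBX1, known for pharyngeal development, at 5.66 RPKM in the ANGPTL4 library and 3.74 RPKM in the control library (ratio 1.51, 1.08 to 2.12). The genes that TBX2 and TBX3 are known to repress were spread over a wide range of levels. CDKN2A, which encodes the p16 and ARF tumour suppressors, was listed at 0 in both, while CDKN1A was at 77.4 RPKM in the ANGPTL4 library and 78.5 RPKM in the control library and CDH1 at 124.3 RPKM in the ANGPTL4 library and 123.2 RPKM in the control library. NDRG1 was at 95.1 RPKM in the ANGPTL4 library and 82.2 RPKM in the control library, a ratio of 1.16 (1.11 to 1.21).

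TFAP2A, the AP-2 alpha factor of skin and neural crest (chromosome 6, 10393419 to 10419892), had the highest ratio of the 10. It was at 13.7 RPKM in the ANGPTL4 library and 10.4 RPKM in the control library, from 364 and 562 reads, a ratio of 1.32 (1.15 to 1.50). Its paralogue TFAP2C was at 11.2 RPKM in the ANGPTL4 library and 11.0 RPKM in the control library (ratio 1.02, 0.804 to 1.28). The antisense row TFAP2A-AS1 was listed at 0 in both, and GATA3-AS1, which does not overlap GATA3, at 0.140 RPKM in the ANGPTL4 library and 0 in the control library.

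**Figure D2:**
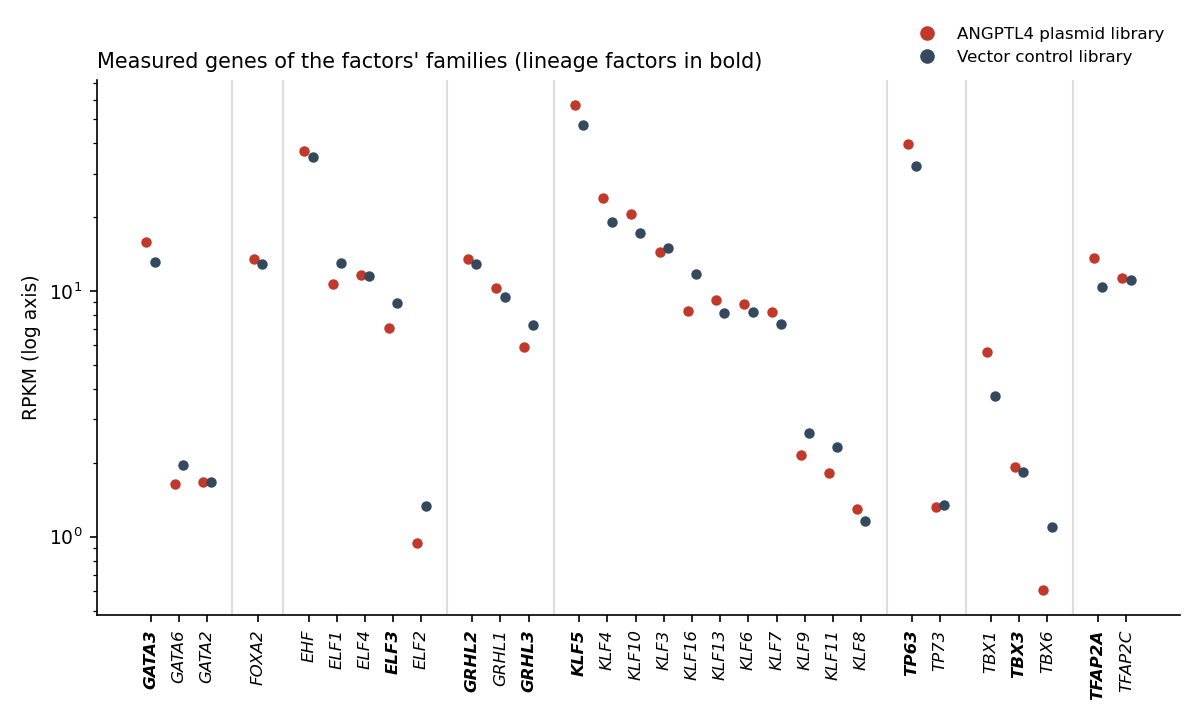
RPKM (log axis) of measured genes of the factors' families in the ANGPTL4 plasmid library (red, left point) and the vector control library (dark, right point), by family from left to right GATA, FOXA, ELF and EHF, GRHL, KLF, TP63 and TP73, T-box and AP-2, with lineage factors in bold. GATA3, GRHL2, KLF5 and TP63 lead their families in both libraries, whereas FOXA2 at 13.4 and 12.9 RPKM, EHF and TBX1 lead the families of FOXA1, ELF3 and TBX3.

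None of the 8 measured factors differed 2-fold on the log2(RPKM + 1) scale, where 3.11% of all measured genes did, 1.19% being higher and 1.91% lower in the ANGPTL4 library. Their log2 ratios ran from -0.30 for ELF3 to 0.37 for TFAP2A with a median of 0.16, beside the median of -0.11 over all genes. Values were higher in the ANGPTL4 library for 6 of the 8, where 35.6% of all measured genes were higher, and lower for ELF3 and GRHL3, whereas after rescaling to a fixed total per library GRHL2 and TBX3 changed sign and the split was 4 and 4. The counting interval lay above a ratio of 1 for 3 factors, KLF5, TP63 and TFAP2A, against 8.26% of 9687 measured genes with settled reads, and below 1 for ELF3, against 28.0% of those genes. Of the genes with at least 100 reads and exons as long as those of the 10 factors (3253 to 8245 bases), 7.95% lay above and 30.8% below. With at least 100 reads at any length the shares were 9.13% above and 31.5% below. Differences between cultures are not part of these intervals, and which of them exclude 1 depends on the scaling.

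**Figure D3:**
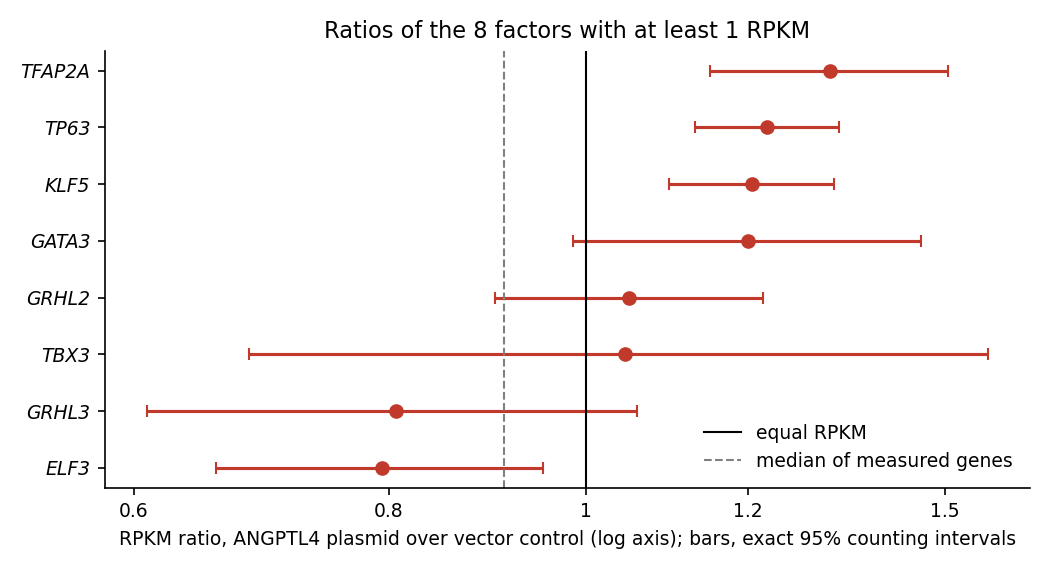
RPKM ratio of the ANGPTL4 plasmid library over the vector control library (log axis) for the 8 measured factors, with exact 95% counting intervals, a solid line at equal RPKM and a dashed line at the median of measured genes. TFAP2A, TP63 and KLF5 lie right of the solid line with their whole intervals and ELF3 lies left of it.

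The ratios of the 8 factors were also set against each other, which removes any scaling shared by a library. The 28 pairs are described with no allowance for their number. Of their intervals 18 included 1 and 10 did not. TFAP2A over ELF3, the factors with the highest and the lowest ratio, gave the largest quotient, 1.66 (1.32 to 2.09), and TP63 over ELF3 gave 1.55 (1.26 to 1.90). KLF5 and TP63 gave 1.02 (0.899 to 1.15 for TP63 over KLF5), a range that covers counting error between these 2 libraries only. ELF3 and GRHL3 gave 1.02 (0.725 to 1.42 for GRHL3 over ELF3), a wider range that does not show that they behave alike.

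**Figure D4:**
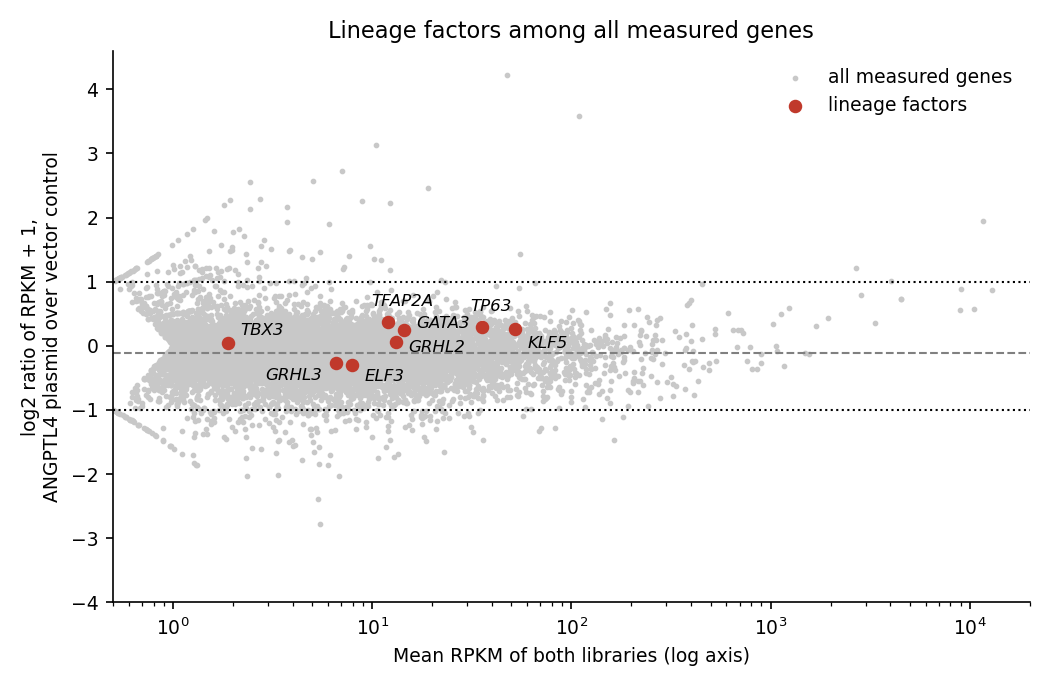
Log2 ratio of RPKM + 1 (ANGPTL4 plasmid over vector control) against mean RPKM of both libraries (log axis) for all 11802 measured genes (grey) and the 8 measured lineage factors (red). Dotted lines mark 2-fold and the dashed line the median of all genes at -0.11, and the factors lie within the dense middle of the cloud, between -0.30 and 0.37.

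Of the 46 other genes in the factors' families, 23 were measured, 13 with higher and 10 with lower values in the ANGPTL4 library. None differed 2-fold. Of all measured genes 35.6% were higher and 3.11% differed 2-fold, so few family genes past 2-fold could be looked for among 23. Their median log2 ratio was 0.02. The interval lay above 1 for KLF4, KLF10 and TBX1 and below 1 for KLF16, beside 8.26% above and 28.0% below over all genes with settled reads.

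Other transcription factors of epithelial differentiation were all measured, 12 of 12, with a median log2 ratio of 0.01. PPARG, the nuclear receptor that drives luminal differentiation with GATA3 and FOXA1, was at 4.13 RPKM in the ANGPTL4 library and 6.09 RPKM in the control library (ratio 0.678, 0.488 to 0.927). At the smallest exon length that gives whole reads the interval of PPARG was 0.421 to 1.06 and included 1. Its partner RXRA was at 8.57 RPKM in the ANGPTL4 library and 10.5 RPKM in the control library (ratio 0.818, 0.717 to 0.931). OVOL1, an epithelial zinc finger repressor, had a ratio of 0.730 (0.585 to 0.905). SPDEF, an ETS factor of secretory cells, had a ratio of 1.43 (1.001 to 2.03) from 57 and 81 reads. Of the 16 nuclear receptors listed as partners of FOXA1 and GATA3, 11 were measured. The glucocorticoid receptor NR3C1 was highest at 15.1 RPKM in the ANGPTL4 library and 12.2 RPKM in the control library, and PGR was listed at 0 in both.

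Genes of the luminal programme were present in part. Keratins of simple epithelium were abundant, with KRT19 at 397.3 RPKM in the ANGPTL4 library and 422.0 RPKM in the control library. The uroplakins, membrane plaque proteins of umbrella cells, were split, as UPK1B was at 38.8 RPKM in the ANGPTL4 library and 42.2 RPKM in the control library, UPK2 at 4.19 RPKM in the ANGPTL4 library and 5.09 RPKM in the control library, and UPK3A was listed at 0 in both. KRT20, the umbrella cell keratin, had 1 read in the ANGPTL4 library and 0 in the control library. Of 23 luminal genes 14 were measured, 5 higher and 9 lower, with a median log2 ratio of -0.10 and no 2-fold difference. That split is near the 35.6% of all measured genes with a higher value. VGLL1, a TEAD cofactor, was at 20.9 RPKM in the ANGPTL4 library and 19.4 RPKM in the control library, and GPX2, a glutathione peroxidase, had 2 reads in the ANGPTL4 library and 14 in the control library. S100P, a calcium-binding protein, had a ratio of 0.702 (0.542 to 0.902), and PSCA, a surface antigen, 1.44 (0.796 to 2.57).

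Basal and squamous genes were nearly all measured, 21 of 23, and their values were mixed in direction. Their summed level was 2359 RPKM in the ANGPTL4 library and 2462 RPKM in the control library, against 981.9 and 1070 RPKM for the luminal list. Such sums depend on which abundant genes a list holds, here mainly keratins, so they do not weigh the basal against the luminal programme. KRT5, the basal keratin, was at 468.9 RPKM in the ANGPTL4 library and 434.2 RPKM in the control library, and KRT17 at 428.7 RPKM in the ANGPTL4 library and 554.1 RPKM in the control library, a gene with close pseudogenes whose reads are uncertain. Of the measured members 7 were higher and 14 lower, again near the 35.6% higher of all genes, with a median of -0.05. The cornified envelope protein IVL was at 13.9 RPKM in the ANGPTL4 library and 8.27 RPKM in the control library (ratio 1.69, 1.27 to 2.22), while S100A8 was at 5.84 RPKM in the ANGPTL4 library and 12.4 RPKM in the control library (ratio 0.471, 0.270 to 0.783). KRT1, a keratin of differentiating squamous epithelium, had a ratio of 2.17 (1.004 to 4.71) from 16 reads in the ANGPTL4 library and 15 in the control library. S100A7 was the only member past 2-fold on the log2(RPKM + 1) scale, listed at 0 in the ANGPTL4 library and at 2.55 RPKM from 9 reads in the control library, and the interval of its ratio reached 1.03.

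Genes known as direct targets of p63 in keratinocytes were nearly all measured, 22 of 23, with 7 higher, 15 lower and a median log2 ratio of -0.11, equal to that of all genes to this precision, of which 35.6% were higher. TP63 itself was higher in the ANGPTL4 library. PERP, a desmosomal protein, was lowest at 52.9 RPKM in the ANGPTL4 library and 94.3 RPKM in the control library (ratio 0.561, 0.516 to 0.609), and the Notch ligand JAG2 had a ratio of 0.733 (0.622 to 0.861). SFN, which encodes 14-3-3 sigma, was highest at 400.7 RPKM in the ANGPTL4 library and 352.2 RPKM in the control library (ratio 1.14, 1.07 to 1.21), followed by the integrin ITGA6 at 1.11 (1.06 to 1.17). The interval lay above 1 for 6 members and below 1 for 9, beside 8.26% above and 28.0% below over all genes with settled reads. With at least 100 reads these shares were 9.13% and 31.5%. Many p63 targets had far more reads, which narrows their intervals, so these counts are not read as a result about the targets. ITGA3, 1 of the 6, had an exon length that was not settled.

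Epithelial genes known as grainyhead-like targets had 18 of 19 members measured, 8 higher and 10 lower beside 35.6% higher of all genes, with a median of -0.06. The tight junction gene CLDN4 was at 23.1 RPKM in the ANGPTL4 library and 35.5 RPKM in the control library (ratio 0.652, 0.577 to 0.736), and the small GTPase RAB25 had a ratio of 0.698 (0.583 to 0.834). ESRP2, an epithelial splicing regulator, was at 31.0 RPKM in the ANGPTL4 library and 26.0 RPKM in the control library (ratio 1.19, 1.07 to 1.32). ARHGEF19 had the highest ratio, 1.54 (0.804 to 2.92), from 19 and 25 reads.

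**Figure D5:**
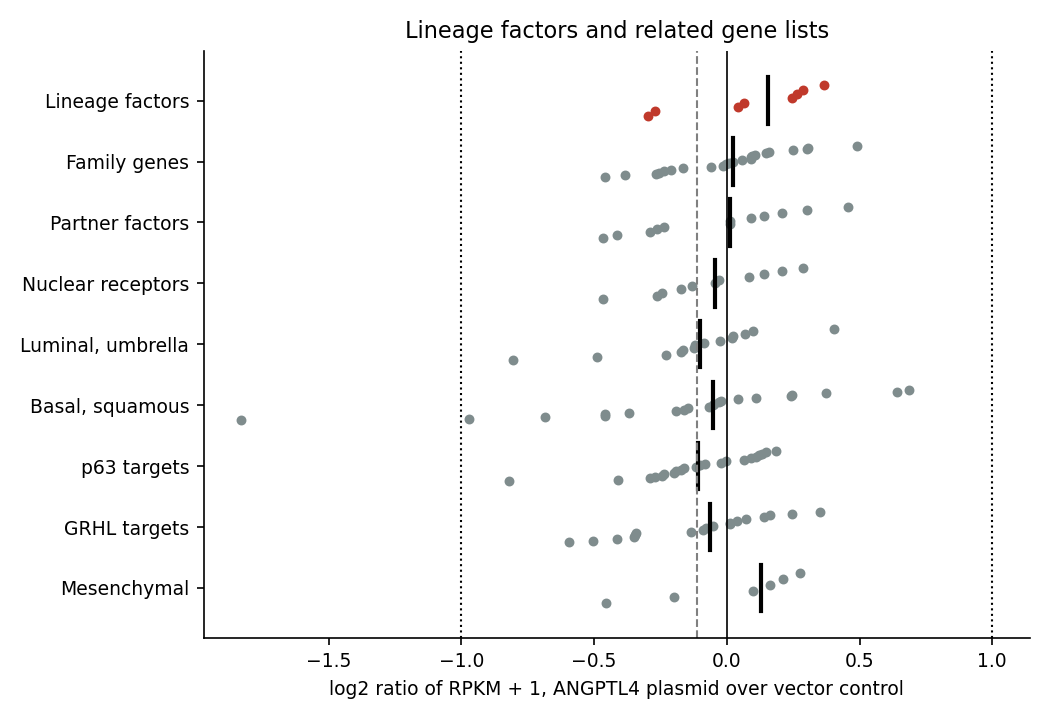
Log2 ratio of RPKM + 1 (ANGPTL4 plasmid over vector control) for each measured gene of the lineage factors (red) and 8 related lists (grey), with list medians as black bars, dotted lines at 2-fold and a dashed line at the median of all genes. The lineage factors run from -0.30 to 0.37 with a median of 0.16, and the luminal, p63 target and GRHL target medians of -0.10, -0.11 and -0.06 lie near the dashed line at -0.11.

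The list medians depended on the scaling. Lists also shared genes, such as KRT5. After centring on the median gene those of the luminal, basal, p63 target and GRHL target lists were 0.01, 0.06, 0.00 and 0.05, so no direction is drawn from them. Epithelial markers were present, with EPCAM at 53.4 RPKM in the ANGPTL4 library and 68.0 RPKM in the control library and KRT7 at 172.7 RPKM in the ANGPTL4 library and 194.8 RPKM in the control library. Most markers of fibroblasts, smooth muscle, endothelium and leukocytes were below 1 RPKM, with CD68 the main exception. Mesenchymal and neuroendocrine genes are described under other observations, and FN1 and TGFBI among them lay above CD68. Of 8 fibroblast markers COL1A1 alone was measured, with DCN, LUM, PDGFRA, COL3A1 and FAP listed at 0 in both, and the list summed to 4.73 RPKM in the ANGPTL4 library and 4.76 RPKM in the control library. No smooth muscle or endothelial marker was measured, with sums of 0.841 and 0.927 RPKM in the ANGPTL4 library and 0.694 and 0.556 RPKM in the control library. Of the 6 endothelial markers 5 were listed, as PECAM1 had no row, so its level is not known. Of 8 leukocyte markers CD68, a lysosomal protein of macrophages, was at 18.0 RPKM in the ANGPTL4 library and 17.1 RPKM in the control library and CD14 at 1.15 RPKM in the ANGPTL4 library and 0.968 RPKM in the control library, and CD3E and MS4A1 were listed at 0 in both, with a sum of 19.1 RPKM in the ANGPTL4 library and 18.2 RPKM in the control library.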

How the data were processed

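RNA sequencing of total RNA from 2 libraries of BFTC 905 cells, 1 per group, was used, and each library was grouped by the transfection in its label. Each row carried the RPKM of 1 gene as the authors deposited it. The submitters' processing notes name hg19, and the aligner, counting program, annotation release and use of strand are not given in the sources used here. Tables held 57773 rows, and rows of 1 symbol were summed. Totals were taken at which the 13 mitochondrially encoded genes lay nearest to whole reads, and all 13 were whole reads there. Exon lengths giving whole reads in both libraries (tolerance at least 0.0002) were taken nearest the GENCODE release 29 length. They counted as settled within 15% of it, for 74.2% of 18483 rows above 0. All 10 factors were settled. Ratio intervals are exact conditional binomial intervals and level intervals exact Poisson intervals, from Python 3.11.15 and SciPy 1.17.1. With 1 library per group no test was made. Named genes are all 10 factors and, per list, the most abundant, the 2 lowest, the 2 highest and any past 2-fold, besides family genes, overlapping rows and markers; KRT7, KRT20, UPK1B, UPK3A, CDKN2A and PGR were added after their values were seen, and some genes of the lists are not reported here. The factors and lists were chosen with earlier results of these data known. The 2-fold rule and the search for library totals were tested on simulated data. The simulated check of reads per row would have missed recovered reads that were too few. Start regions come from RefSeq. Alternatives were other pseudocounts, minimums, scalings, row handling and exon lengths.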

Additional observations from a re-analysis of the deposited data

How the results depend on the processing

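No paired analysis was possible because each group had 1 library, and leaving out a library was not possible for the same reason. Under pseudocounts of 0.1 and 5, no minimum, a minimum of 5 RPKM, the highest row of each symbol and 4 scalings, none of the measured factors passed 2-fold, and the median log2 ratio of the factors lay between 0.0096 and 0.31. GATA3, KLF5, TP63 and TFAP2A stayed above 0 and ELF3 and GRHL3 below 0 under each of these. This holds for the sign and not for the counting intervals. Upper-quartile scaling multiplies each ratio and its interval by 1.12. The interval of ELF3 then includes 1, and those of GATA3 and GRHL2 lie above 1. Centring on the median gene multiplies ratios and intervals by 1.08. The interval of ELF3 then includes 1 and that of GATA3 lies above 1. Leaving genes of mitochondria, of ribosomal proteins and of small RNA out of the total multiplies them by 1.03. The interval of GATA3 then lies above 1 and that of ELF3 stays below 1. Rescaling to a fixed total multiplies ratios and intervals by 0.889. The interval of KLF5 then includes 1 and that of GRHL3 lies below 1. GRHL2 and TBX3 went below 0 only on rescaling to a fixed total, at -0.09 and -0.07. With upper-quartile scaling KLF5 was at 0.43 and TP63 at 0.45, and on rescaling to a fixed total at 0.10 and 0.12. The p63 target median was 0.019 with upper-quartile scaling and -0.25 on rescaling to a fixed total. The median of the 9 measured of 11 urothelial and epithelial markers, -0.12 as deposited, was -0.012 after centring on the median gene, 0.039 with upper-quartile scaling and -0.29 on rescaling to a fixed total. With the smallest exon length that gives whole reads, TP63 had 475 reads in the ANGPTL4 library in place of 950 and an interval of 1.09 to 1.38, and no other factor changed, while the intervals of TBX1 (0.926 to 2.45), SPDEF (0.752 to 2.67) and PPARG (0.421 to 1.06) then included 1. The counts of genes past 2-fold, 141 higher and 226 lower, were 284 and 532 with a pseudocount of 0.1, 15 and 26 with a pseudocount of 5, 182 and 139 after centring, 193 and 144 with upper-quartile scaling, 156 and 195 when genes of mitochondria, of ribosomal proteins and of small RNA are left out of the total, 34 and 126 at 5 RPKM or more, and 104 and 346 on rescaling to a fixed total. Depth limits FOXA1 and TBX2, whose 1 to 7 reads per library allow no statement on a difference.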

Other observations

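Mesenchymal genes were measured for 6 of 11 members. The EMT repressor SNAI2 was at 14.5 RPKM in the ANGPTL4 library and 11.8 RPKM in the control library (ratio 1.23, 0.957 to 1.57, with an exon length that was not settled), and SNAI1 at 7.89 RPKM in the ANGPTL4 library and 6.68 RPKM in the control library. Fibronectin, FN1, was abundant at 67.6 RPKM in the ANGPTL4 library and 63.1 RPKM in the control library. Vimentin, VIM, was at 0.249 RPKM from 4 reads in the ANGPTL4 library and 0.613 RPKM from 20 reads in the control library, TWIST2 was listed at 0 in both, and ZEB1 and ZEB2 had 0 reads in the ANGPTL4 library and 2 and 1 reads in the control library. TGFBI, a TGF-beta-induced matrix protein, had the lowest ratio of the list, 0.722 (0.664 to 0.785), and SPARC had 0.858 (0.693 to 1.06). VIM, ZEB1, ZEB2 and TWIST2 were named after their values were seen.

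Of 9 neuroendocrine genes, 3 were measured. SOX2, a factor of stem cells and squamous epithelium, was at 5.80 RPKM in the ANGPTL4 library and 4.79 RPKM in the control library (ratio 1.21, 0.824 to 1.76), TUBB2B at 2.68 RPKM in the ANGPTL4 library and 1.87 RPKM in the control library, and CHGB at 1.02 RPKM in the ANGPTL4 library and 1.01 RPKM in the control library. The defining factors NEUROD1 and INSM1 were listed at 0 in both.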
